A study of Mus musculus with 14 samples.

Results

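The data described here are the transcript levels of 10 mouse genes that handle bile acids and dietary lipid in absorptive cells of the gut. The set was given by name: Slc10a2, Fabp6, Slc51a and Slc51b for bile acids, and Apoa1, Apoa4, Apob, Apoc3, Mttp and Mogat2 for lipoproteins. All 10 were found among the 36536 Ensembl genes of the count tables, and all 10 passed the filter on low counts. The study sequenced RNA from 14 mouse libraries of ileum (distal small intestine) and colon, and its title names the identification of target genes of ATOH1, the transcription factor required for secretory cells of the intestinal epithelium. For each tissue there were 2 libraries of Atoh1 knockout crypts (KO, Atoh1 f/f;VilCreERT2), 2 libraries of crypts of their littermates (WT, Atoh1 f/+;VilCreERT2) and 3 libraries of ATOH1-GFP cells (GFP, sorted as live, 7AAD-negative and GFP-positive from crypts of Atoh1GFP/GFP mice). The crypt mice were 6-8 weeks old. The WT mice therefore carried the Cre recombinase, which the villin promoter drives in the intestinal epithelium, and 1 floxed Atoh1 allele as well. The sorted cells came from mice with a functional ATOH1-GFP fusion protein and without the Cre, so GFP and WT libraries differ in genotype and in handling as well as in cell type. The labels do not say that libraries of a group came from separate animals, and p-values here measure the spread between libraries.

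Bile acids made in the liver are recovered mainly in the ileum. The apical sodium-dependent transporter encoded by Slc10a2 brings them into the enterocyte, the cytosolic binding protein encoded by Fabp6 holds them there, and the organic solute transporter, a heterodimer of the products of Slc51a and Slc51b, exports them to the portal blood. In the lipoprotein pathway Mogat2 encodes the enzyme that rebuilds diacylglycerol from absorbed monoacylglycerol, Mttp encodes the transfer protein that loads lipid onto apolipoprotein B, the structural protein of the chylomicron encoded by Apob, and Apoa1, Apoa4 and Apoc3 encode smaller apolipoproteins carried on such particles. Enterocytes, the absorptive cells, are the usual site of all these transcripts in the gut, whereas ATOH1-GFP cells belong to the secretory lineage of goblet, Paneth and enteroendocrine cells.

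Gene counts per library lay between 8848660 and 10870416 in crypts and between 7478418 and 12991891 in sorted cells. Levels are given as CPM, counts scaled to a common library total with edgeR's TMM factors. Atoh1 itself stood at 62.6 and 44.7 CPM in colon WT, 5.2 and 5.90 in colon KO, 41.0 and 39.5 in ileum WT, 1.01 and 0.526 in ileum KO, and 195 to 323 in the 6 sorted libraries. The KO, WT and GFP labels thus matched the level of the targeted gene. The summed level of 8 goblet cell markers was 11230 to 15380 CPM in ileum WT, 223 to 573 in ileum KO and 46630 to 133300 in ileum GFP, and that of 13 small intestinal enterocyte markers was 8306 to 14170, 16730 to 18310 and 980 to 2028 in the same groups. Ribosomal RNA of mitochondria took 30.0% to 44.9% of the gene counts of sorted libraries and 0.14% to 0.22% of those of crypts. The sum of 5 hepatocyte markers was at most 6.27 CPM in any library. In the 3 colon GFP libraries Ahsg and Serpina1a were at 0, but Alb stood at 5.95, 5.48 and 1.94 CPM and made up most of the sum. In colon WT Alb stood at 0.519 and 0.684 CPM. Colon GFP 1 stood apart from its replicates, with a sum of 8 Paneth cell markers of 2365 CPM against 195 and 153, and results that rest on it are given with and without it.

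The region upstream of each of the 4 bile acid genes is shown because these genes share the route of a bile acid through the ileal cell and were all higher in ileum than in colon. The windows are RefSeq promoters of GRCm38.p6, from 250 bases before to 50 bases after the annotated start, and 8 of the 10 genes had such an entry. Each is printed 5′ to 3′ on the strand of its gene, which is the minus strand for all 4. Slc10a2 lies at chr8:5105238-5105537, Fabp6 at chr11:43601513-43601812, Slc51a at chr16:32487830-32488129 and Slc51b at chr9:65422724-65423023. Capitals mark matches to short motifs searched on both strands.
Slc10a2: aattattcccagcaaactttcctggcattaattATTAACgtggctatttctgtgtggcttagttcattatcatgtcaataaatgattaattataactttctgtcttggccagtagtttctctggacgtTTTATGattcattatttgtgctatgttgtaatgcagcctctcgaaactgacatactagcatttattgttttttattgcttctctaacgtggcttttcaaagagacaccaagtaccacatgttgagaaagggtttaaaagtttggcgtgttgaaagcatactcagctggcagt
Fabp6: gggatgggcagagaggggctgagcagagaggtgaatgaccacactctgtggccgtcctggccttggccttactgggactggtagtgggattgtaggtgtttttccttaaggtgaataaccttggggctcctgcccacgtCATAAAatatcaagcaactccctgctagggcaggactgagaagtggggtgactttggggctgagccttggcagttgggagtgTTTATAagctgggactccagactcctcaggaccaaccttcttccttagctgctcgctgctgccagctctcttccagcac
Slc51a: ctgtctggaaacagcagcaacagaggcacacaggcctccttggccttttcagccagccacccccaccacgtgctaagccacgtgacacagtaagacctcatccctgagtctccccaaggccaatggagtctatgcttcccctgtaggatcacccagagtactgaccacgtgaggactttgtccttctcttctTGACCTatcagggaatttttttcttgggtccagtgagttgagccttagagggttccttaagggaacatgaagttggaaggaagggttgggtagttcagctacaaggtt
Slc51b: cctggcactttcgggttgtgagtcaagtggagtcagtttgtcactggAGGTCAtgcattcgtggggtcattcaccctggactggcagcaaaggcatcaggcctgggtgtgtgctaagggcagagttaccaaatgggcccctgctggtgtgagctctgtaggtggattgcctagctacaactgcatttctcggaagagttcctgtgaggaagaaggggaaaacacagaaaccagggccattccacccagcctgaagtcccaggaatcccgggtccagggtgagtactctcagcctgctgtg

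The capitals in Slc10a2 are an HNF1-type GTTAAT on the reverse strand and a CDX-type TTTATG. In Fabp6 they are TTTATG on the reverse strand and a TATA box, TATAAA, on the reverse strand. In Slc51a and Slc51b they are the nuclear receptor hexamer AGGTCA, on the reverse strand in Slc51a and on the forward strand in Slc51b. GTTAAT occurs in 7.10% of the 32851 RefSeq promoters of this length, TTTATG in 11.9%, TATAAA in 13.6% and AGGTCA in 16.3%. The reverse complement of TATAAA is close to TTTATG, and no stretch was counted under both. The other motifs searched were the HNF4-type CAAAGTCCA, present in 0.475% of promoters, and the GATA-type AGATAA, present in 11.2%. Among the remaining promoters Apob held a single TATAAA on the forward strand, and Apoa1, Apoa4 and Mttp held none of these letters. A match describes the letters of the window and says nothing of binding.

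The first comparison asked how the genes differ between ileum and colon in WT crypts. All 10 were higher in ileum, at adjusted p under 0.05 by edgeR's quasi-likelihood test with Benjamini-Hochberg adjustment over 14415 genes, where 19.9% of genes tested were called and 9.71% were called higher. The median log2 fold change of the 10 was 6.2, against 0.01 over all genes tested. The differences ran from 4.43-fold for Slc51b to 707-fold for Apoa1. Several of these values moved with single colon WT libraries. The log2 fold change ran from 3.18 without colon WT 2 to 5.19 without colon WT 1 for Slc51a, and in the same order from 8.7 to 10.9 for Apoa1 and from 6.35 to 8.08 for Mttp. Without colon WT 1 it was 4.33 for Slc10a2, 7.69 for Fabp6, 7.95 for Apoa4 and 6.29 for Apoc3, and without colon WT 2 it was 10.23 for Apoc3. In these bulk samples fewer cells of a type and less RNA per cell cannot be told apart, and 10 of the 13 enterocyte markers were also higher in ileum, where the colonocyte markers were lower for 7 of 10.

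Among the bile acid genes the uptake carrier and the exporter had clear levels in the colon too. Slc10a2 (ENSMUSG00000023073) stood at 241 and 97.0 CPM in ileum WT and at 25.2 and 8.13 in colon WT. The tissues did not overlap, but in each tissue the first library was well above the second, and the log2 fold change was 3.34 ± 0.68 (SE; adjusted p = 0.0216), a ratio of 10.2. Slc51a (ENSMUSG00000035699), the alpha subunit of the exporter, gave 668 and 353 CPM in ileum against 55.7 and 13.5 in colon, a log2 fold change of 3.88 ± 0.69 (adjusted p = 0.0131). Slc51b (ENSMUSG00000053862), the beta subunit, gave 147 and 99.3 CPM in ileum against 34.2 and 21.2 in colon. Its log2 fold change of 2.15 ± 0.26 (adjusted p = 0.0025) was the smallest of the 10, with colon WT at 22.5% of the ileum WT mean. The call for Slc10a2 and Slc51a was lost when only the 4 WT libraries entered the fit (adjusted p = 0.0784 and 0.0703) and without the filter on low counts (adjusted p up to 0.0844). It was also lost for Slc10a2 without ileum WT 1 (log2 fold change 2.56) and without colon WT 2 (adjusted p up to 0.0804), and for Slc51a without ileum WT 1 (adjusted p = 0.0646).

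Fabp6 (ENSMUSG00000020405), the binding protein between both transport steps, was the most unequal of the bile acid genes. It stood at 2254 and 1069 CPM in ileum WT and at 23.0 and 7.79 in colon WT, with no overlap. The log2 fold change was 6.75 ± 0.76 (adjusted p = 0.0024), a ratio of 107. The colon therefore held 0.927% of the ileal Fabp6 level, beside 9.86% for Slc10a2, 6.78% for Slc51a and 22.5% for Slc51b. The differences between these shares were not tested, and the 2 colon WT libraries differed by 4.11-fold for Slc51a.

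In the lipoprotein pathway the assembly genes Mogat2 and Mttp were low in colon crypts. Mogat2 (ENSMUSG00000052396) gave 127 and 106 CPM in ileum WT and 2.77 and 1.84 in colon WT, a log2 fold change of 5.66 ± 0.19 (adjusted p = 7.93e-06). This was the tightest of the 10 estimates. Mttp (ENSMUSG00000028158) gave 535 and 421 CPM against 5.80 and 1.71, a log2 fold change of 7.01 ± 0.55 (adjusted p = 0.000552). Apob (ENSMUSG00000020609) gave 1393 and 911 CPM against 90.4 and 44.8, a log2 fold change of 4.08 ± 0.38 (adjusted p = 0.000778). Colon crypts thus kept 5.87% of the ileal Apob level and 0.785% of the ileal Mttp level.

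The 3 small apolipoprotein genes had the largest fold changes between tissues in WT crypts, an order that was not tested. Apoc3 was 136-fold higher in ileum and Mttp 129-fold, and in KO crypts Apoc3 was 86.8-fold higher and Mttp 356-fold. Apoa1 (ENSMUSG00000032083) stood at 1655 and 1614 CPM in ileum WT and at 3.895 and 0.820 in colon WT, a log2 fold change of 9.47 ± 0.70 (adjusted p = 0.000411). Apoa4 (ENSMUSG00000032080) stood at 121 and 197 CPM against 1.47 and 0.615, a log2 fold change of 7.28 ± 0.47 (adjusted p = 0.000231), or 155-fold. Apoa4 was the only gene besides Apoc3 whose second ileum WT library was the higher one. Apoc3 (ENSMUSG00000032081) gave 9.83 and 13.5 CPM in ileum WT, and colon WT held 2 counts in all. The ratio of summed levels was 152, with a 95% counting interval of 41.7 to 1260 that covers counting error only (adjusted p = 0.000216). Apoa1, Apoc3 and Apoa4 follow each other on chromosome 9 in the RefSeq order of protein-coding genes, with Apoa5 next to Apoa4, and Apoa5 was too low to be tested.

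**Figure D1:**
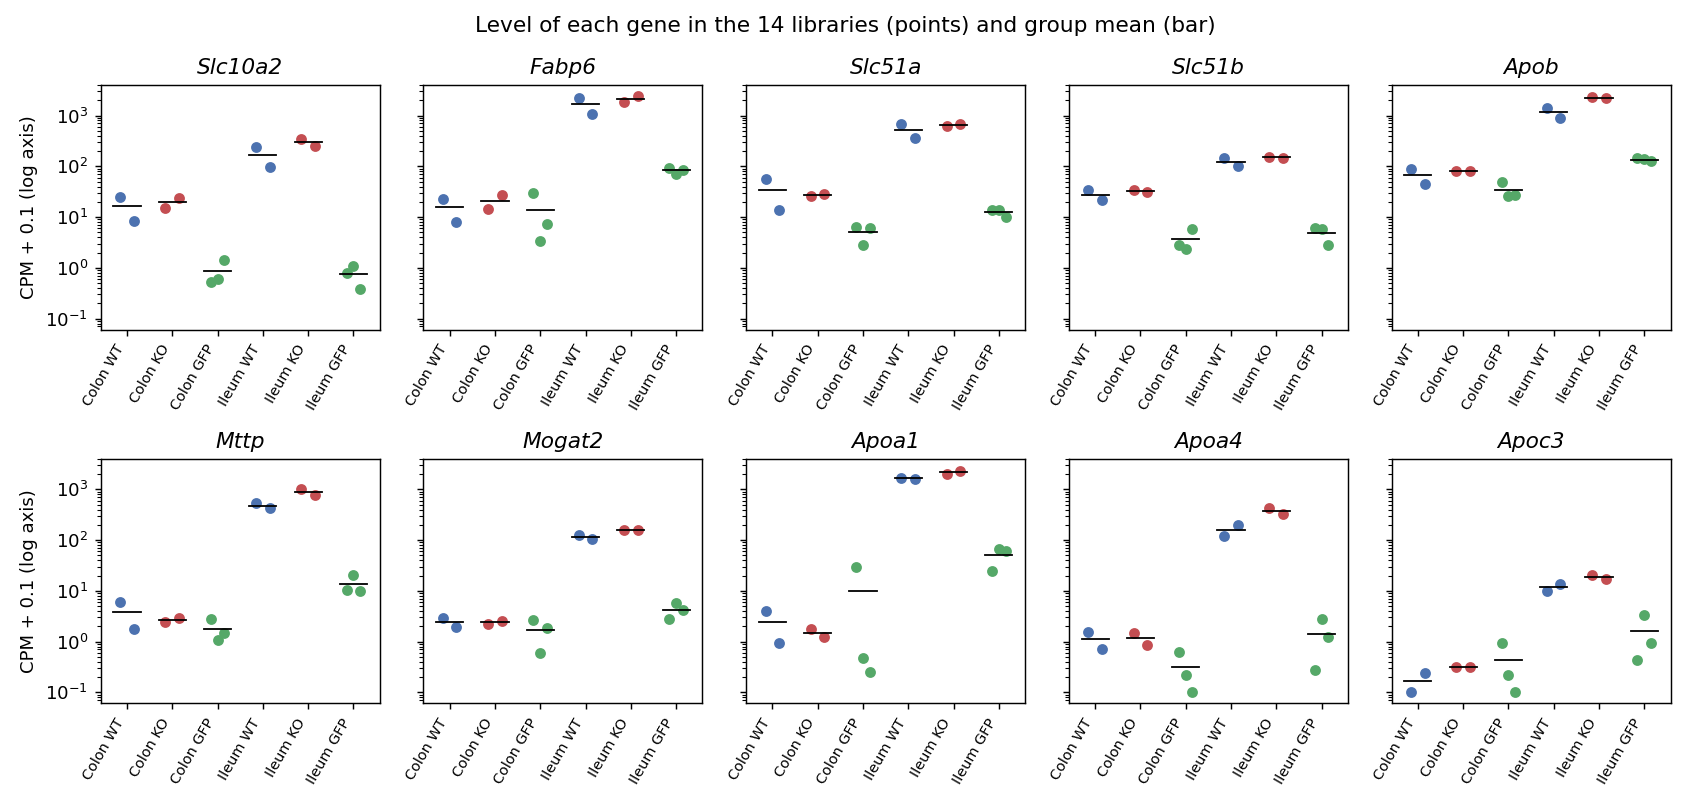
Level of each of the 10 genes in each of the 14 libraries, as CPM plus 0.1 on a log axis, with 1 point per library and a bar at the group mean, grouped by tissue and by WT, KO and GFP. Ileum crypts sit above colon crypts for every gene, and the 3 ileum GFP libraries sit below the ileum crypts for every gene, as for Slc10a2 with 0.286 to 0.979 CPM against 97.0 to 341.

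Within ileum WT the 10 genes were ordered by CPM per kilobase of exon, which sets genes of unequal length on a common scale. Fabp6 came first at 3469 ± 1749 CPM per kilobase (SD, n = 2) and held 63.2% of the sum of the 10, followed by Apoa1 at 1322 ± 23.1 with 24.1%. Slc51b at 174 ± 47.9 and Slc51a at 160 ± 69.5 overlapped between libraries. Apoa4 at 87.4 ± 29.7, Apob at 82.6 ± 24.5, Mttp at 77.0 ± 12.9 and Mogat2 at 63.5 ± 7.83 formed a run in which neighbours overlapped, and Mogat2 also overlapped Slc10a2 at 40.7 ± 24.5. Apoc3 closed the order at 11.5 ± 2.59. In ileum KO the same order held except that Apoa4 (209 ± 41.9) stood above Slc51a (204 ± 9.20). In colon WT the order was different: Slc51b came first at 39.1 ± 12.97 and held 41.0% of the sum, Fabp6 held 33.8%, Slc51a 11.3% and Apob 5.09%.

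Partner genes were therefore in different proportion in each tissue. The exporter subunits act as a heterodimer, and the ratio of Slc51a to Slc51b on the per-kilobase scale was 1.00 and 0.789 in ileum WT and 0.917 and 1.01 in ileum KO, but 0.361 and 0.142 in colon WT and 0.168 and 0.209 in colon KO. The 4 ileum crypt libraries did not overlap with the 4 colon crypt libraries. For Fabp6 over Slc10a2 the ratio was 48.0 to 95.6 in ileum crypts and 7.92 to 10.1 in colon crypts. For Apob over Mttp the order turned round, with 0.963 to 1.25 in ileum crypts and 6.94 to 15.4 in colon crypts. Slc51a shares exon sequence with Pcyt1a on the opposite strand, Slc51b with Rasl12, Mttp with Trmt10a and Apoa4 with Gm10680, and the strand setting of the counting is not given in the sources used here, so reads of such partners cannot be told apart.

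**Figure D2:**
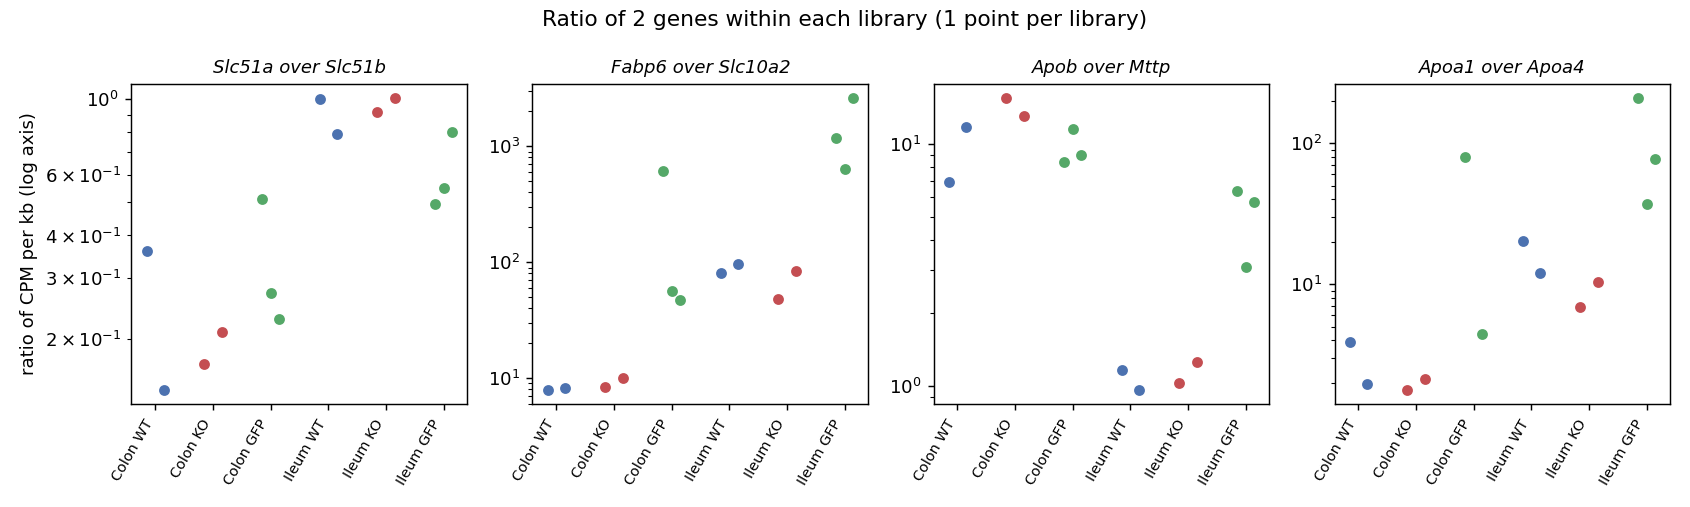
Ratio of partner genes on the CPM per kilobase scale in each library, on a log axis, for Slc51a over Slc51b, Fabp6 over Slc10a2, Apob over Mttp and Apoa1 over Apoa4, with 1 point per library grouped by tissue and sample type, except that colon GFP 3 has no point for Apoa1 over Apoa4 because it had no Apoa4 count. In crypts the ileum and colon points separate in all 4 panels, as for Apob over Mttp at 0.963 to 1.25 against 6.94 to 15.4.

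The same comparison in KO crypts asked whether the regional pattern is present when Atoh1 is deleted. All 10 genes were again higher in ileum than in colon by edgeR's quasi-likelihood test, where 25.7% of genes tested were called and 12.6% called higher, with a median log2 fold change of 6.29 against 0.02 over all genes. Apoa1 reached 1574-fold, from 2027 and 2287 CPM in ileum KO to 1.66 and 1.12 in colon KO. Apoa4 was 359-fold higher, Mttp 356-fold, Fabp6 105-fold, Mogat2 70.2-fold, Apob 28.5-fold, Slc51a 24.2-fold, Slc10a2 15.7-fold and Slc51b 4.72-fold. Apoc3 had 494 counts over ileum KO and 6 over colon KO, a log2 fold change of 6.44 ± 0.43. The calls for Slc10a2 and Slc51a were lost without either colon KO library (adjusted p up to 0.068 and 0.0568).

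**Figure D3:**
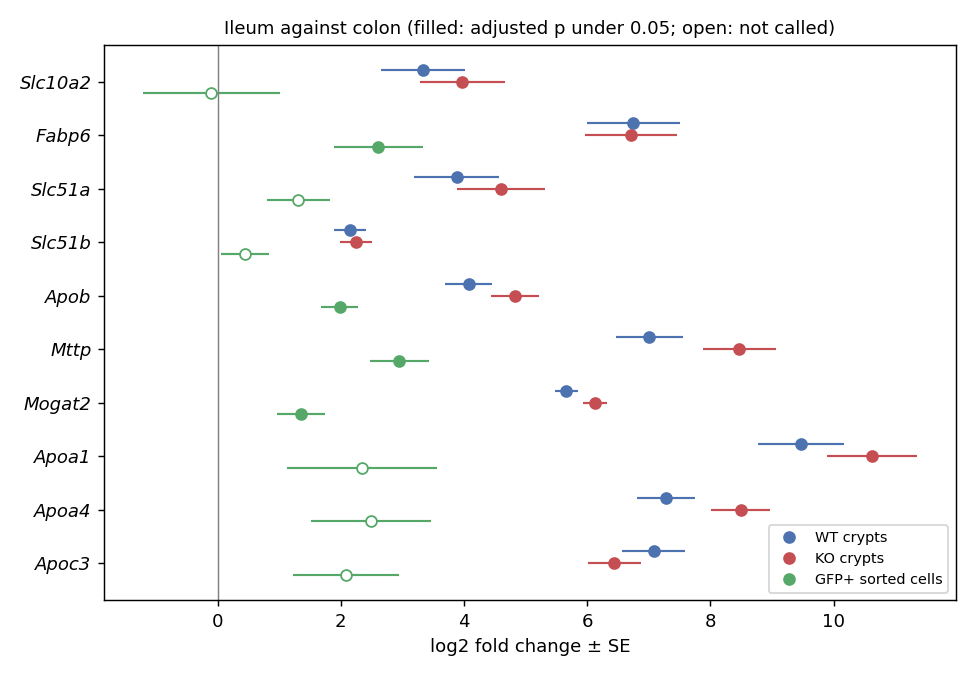
Log2 fold change of ileum over colon for each gene in WT crypts, KO crypts and GFP cells, with bars of 1 standard error from edgeR's quasi-likelihood fit, filled where the adjusted p was under 0.05 and open where it was not. All 20 crypt values are filled and lie above 2, whereas 4 of the 10 values in GFP cells are filled.

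The knockout comparison asked whether loss of Atoh1 changes these genes within a tissue. In ileum none of the 10 was called between KO and WT crypts by edgeR's quasi-likelihood test, where 1.22% of genes tested were called and 0.132% were called higher. All 10 log2 fold changes were positive, with a median of 0.60 against 0.01 over all genes, and 4 genes had an unadjusted p under 0.05. DESeq2 called 2 of the 10, Apoa4 (adjusted p = 0.000471) and Apob (adjusted p = 0.0171). Both KO libraries lay above both WT libraries for 8 genes, all but Fabp6 and Slc51a, as they did for 18% of all genes tested.

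Apoa4 had the widest difference, with 433 and 325 CPM in ileum KO against 121 and 197 in ileum WT. The log2 fold change was 1.29 ± 0.32, with an unadjusted p of 0.00562 and an adjusted p of 0.151 by edgeR. Apob gave 2315 and 2200 CPM in KO against 1393 and 911 in WT (log2 fold change 1.01 ± 0.33, adjusted p = 0.257). The groups did not overlap for either gene. Mttp, the partner of Apob in particle assembly, gave 1005 and 785 CPM against 535 and 421 (0.94 ± 0.41, adjusted p = 0.401), Mogat2 158 and 156 against 127 and 106 (0.47 ± 0.14, adjusted p = 0.201), and Apoc3 20.5 and 17.4 against 9.83 and 13.5 (0.73 ± 0.29, adjusted p = 0.33). Without ileum WT 1, Mogat2 was called (0.59, adjusted p = 0.0348), and the genes called over the whole table went from 176 to 1403.

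None of the bile acid genes was called between ileum KO and WT. Slc10a2 gave 341 and 252 CPM in KO against 241 and 97.0 in WT (log2 fold change 0.85 ± 0.61, adjusted p = 0.614). Fabp6 gave 1888 and 2422 CPM against 2254 and 1069 (0.41 ± 0.59, adjusted p = 0.818), and these groups overlapped. Slc51a gave 631 and 673 CPM against 668 and 353 and also overlapped, while Slc51b gave 152 and 148 against 147 and 99.3. Apoa1 gave 2027 and 2287 CPM in KO against 1655 and 1614 in WT (0.43 ± 0.47, adjusted p = 0.75).

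Of the 13 enterocyte markers 1 was called between ileum KO and WT and 12 were not, where 1.22% of all genes tested were called. All 13 had a positive log2 fold change, with a median of 0.70, and 11 had both KO libraries above both WT libraries. The same ordering held for 7 of 8 proliferation markers and for 18% of all genes tested. The WT libraries also differed from each other. Ileum WT 1 exceeded ileum WT 2 for 8 of the 10 genes (median log2 ratio 0.46) and for 11 of 13 enterocyte markers (0.36). These medians lay below those of KO over WT, 0.60 for the 10 genes and 0.70 for the markers. The immune markers were higher in ileum WT 1 for 10 of 10 (2.26), and the tuft markers were lower for 7 of 7 (-4.13). The goblet sum stood lower in ileum KO, as given above, and the Paneth sum was 1060 to 1694 CPM against 10250 to 32020 in WT. The part of these markers in the KO values was not tested.

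In colon none of the 10 genes was called between KO and WT crypts by edgeR's quasi-likelihood test, where 0.153% of genes tested were called. None had an unadjusted p under 0.05, DESeq2 called none, and the median log2 fold change was 0.15 with 6 of 10 positive. Apob gave 80.0 and 82.0 CPM in KO against 90.4 and 44.8 in WT, and Slc10a2 14.8 and 23.7 against 25.2 and 8.13, both within the WT range. Only Apoc3 had both KO libraries above both WT libraries, at 0.217 and 0.211 CPM against 0 and 0.137, an ordering that 22.5% of all genes tested showed. Colon WT 1 was above colon WT 2 for all 9 of the genes with counts in both (median log2 ratio 1.56), a wider gap than among the enterocyte markers (0.51 for 12) or the colonocyte markers (0.65 for 10), which limits what these libraries can resolve. The difference of the KO effect between ileum and colon was called for none of the 10 genes, where 0.00694% of genes tested were called. None of the 10 had an unadjusted p under 0.05 and DESeq2 again called none, and the largest estimate was that of Mttp (1.46 ± 0.67, unadjusted p = 0.0698).

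The sorted ATOH1-GFP cells were then set against WT crypts of the same tissue, which asked how much of these transcripts the sorted cells hold. In ileum all 10 genes were lower in GFP cells than in WT crypts by edgeR's quasi-likelihood test, where 52.8% of genes tested were called and 28.1% were called lower. The median log2 fold change was -4.89, against -0.06 over all 15274 genes tested. Enterocyte markers stood lower in the same libraries, as given above, and the part of that list in these values was not tested. Of 9 enteroendocrine markers 8 were called lower and 1 higher, with a median log2 fold change of -2.37. The sorted cells thus held less of most of these markers than the crypts, and their values cannot be read as those of enteroendocrine cells.

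Slc10a2 had the lowest share of the crypt level, at 0.681, 0.979 and 0.286 CPM in the 3 ileum GFP libraries against 241 and 97.0 in WT crypts. The log2 fold change was -7.97 ± 0.69 (adjusted p = 5.71e-06), and GFP cells held 0.384% of the crypt level. The shares were larger for the downstream steps of the same route, a difference that was not tested. Slc51a stood at 13.6, 13.95 and 9.85 CPM, or 2.44% of the crypt level (-5.35 ± 0.53, adjusted p = 1.35e-05), and Slc51b at 6.13, 5.63 and 2.71, or 3.91% (-4.68 ± 0.36, adjusted p = 5.97e-07). Fabp6 stood at 92.8, 71.98 and 85.5 CPM, or 5.02% (-4.32 ± 0.79, adjusted p = 0.0012). Without ileum WT 1 the log2 fold change was -7.18 for Slc10a2 and -3.7 for Fabp6. The ratio of Fabp6 to Slc10a2 per kilobase was 637 to 2596 in these libraries, above the 48.0 to 95.6 of ileum crypts. In the sorted libraries it rests on only 4, 8 and 2 counts of Slc10a2, so its size is poorly fixed.

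Among the lipoprotein genes Apob and Apoc3 kept the largest shares of the crypt level. Apob stood at 144, 138 and 125 CPM against 1393 and 911 in WT crypts, or 11.8% of the crypt level (log2 fold change -3.09 ± 0.32, adjusted p = 5.03e-06). Mttp stood at 10.05, 19.95 and 9.71 CPM, or 2.77% (-5.16 ± 0.44, adjusted p = 2.49e-06). The ratio of Apob to Mttp per kilobase was 3.09 to 6.36 in ileum GFP cells, beside 0.963 to 1.25 in ileum crypts. Mogat2 stood at 2.72, 5.75 and 3.998 CPM, or 3.57% (-4.77 ± 0.32, adjusted p = 1.73e-07). Apob, Mttp and Mogat2 were separated from the crypts without overlap.

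Apoa4 and Apoc3 varied most of the 10 genes among the sorted ileum libraries, with 15.8-fold and 9.71-fold between the highest and the lowest. These ratios rest on few counts, 1, 22 and 8 for Apoa4 and 2, 27 and 6 for Apoc3. Apoa1 gave 24.2, 67.9 and 60.5 CPM against 1655 and 1614 in WT crypts (log2 fold change -5.00 ± 1.37, adjusted p = 0.0135), and with the replicate number as a block this became -4.44 with an adjusted p of 0.0623. Apoa4 gave 0.170, 2.69 and 1.14 CPM, or 0.841% of the crypt level (-6.77 ± 0.52, adjusted p = 1.56e-06). Apoc3 gave 0.341, 3.31 and 0.857 CPM, or 12.8% (-2.87 ± 0.66, adjusted p = 0.00272). Without ileum GFP 2 the log2 fold change was -7.81 for Apoa4 and -4.22 for Apoc3. For all 3 genes, as for Mogat2, ileum GFP 1 was the lowest library, whereas it was the highest for Fabp6, Slc51b and Apob. It lay between the other libraries for Slc10a2, Slc51a and Mttp. Its enterocyte marker sum was the lowest, 980 CPM against 2028 and 1613. Single markers were mixed, with Vil1 and Krt20 lowest and Slc5a1 and Mep1a highest in ileum GFP 1. This library also stood apart in other ways. Reads outside genes made up 52.29% of its uniquely placed reads, against 27.78% and 31.25% in the other ileum GFP libraries. Its goblet marker sum was 46630 CPM against 133300 and 116700, and its sum of 7 stem cell markers 2512 against 1265 and 1245. The part of these markers and of library quality in the values was not tested.

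In colon 4 of the 10 genes were lower in GFP cells than in WT crypts by edgeR's quasi-likelihood test, where 45.9% of genes tested were called and 23.6% were called lower. The median log2 fold change was -1.03, against 0.01 over all genes. These were the transporters and Apob. The enterocyte marker sum was 689 to 819 CPM in these cells and 1868 to 2773 in colon WT, and the colonocyte marker sum 564 to 1671 and 5771 to 11810, and the part of these lists was not tested. Of 9 enteroendocrine markers 6 were called lower and 1 higher in these cells, with a median log2 fold change of -1.82. Slc10a2 stood at 0.425, 0.498 and 1.34 CPM against 25.2 and 8.13 (-4.51 ± 0.70, adjusted p = 0.000427), a level close to that of ileum GFP cells. Slc51b stood at 2.76, 2.24 and 5.83 CPM against 34.2 and 21.2 (-2.97 ± 0.36, adjusted p = 3.47e-05), and Slc51a at 6.38, 2.74 and 5.98 against 55.7 and 13.5 (-2.77 ± 0.53, adjusted p = 0.00153). Without colon WT 1 these log2 fold changes were -3.51 for Slc10a2 and -1.44 for Slc51a, and without colon WT 2 they were -5.14 and -3.48. Apob gave 50.1, 25.6 and 27.1 CPM against 90.4 and 44.8, groups that overlap (-0.98 ± 0.32, adjusted p = 0.0217). Its call was lost without colon GFP 2, without colon GFP 3 and without colon WT 1, where the log2 fold change was -0.40 (adjusted p = 0.424).

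The other 6 genes were not called in colon. Fabp6 gave 30.0, 3.24 and 7.32 CPM in colon GFP against 23.0 and 7.79 in colon WT. Mttp gave 2.66, 0.996 and 1.34 CPM against 5.80 and 1.71 (-1.09, adjusted p = 0.124), and without colon WT 2 it was called (-1.77, adjusted p = 0.0157). Mogat2 gave 2.55, 0.498 and 1.79 against 2.77 and 1.84. The value of Apoa1 rested on 1 library: colon GFP 1 held 28.8 CPM from 271 counts, whereas the other two held 0.374 and 0.149 CPM from 3 counts and 1 count. With that library the log2 fold change was 2.13 (adjusted p = 0.288), and without it -3.02 (adjusted p = 0.0367). Apoc3 went from 2.10 to -0.14 in the same way and was not called in either fit. Fabp6 had 282 counts in colon GFP 1 against 26 and 49, and its log2 fold change went from -0.16 to -1.55 without that library. Apoa4 went from -1.98 to -3.68, and neither gene was called in either fit.

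**Figure D4:**
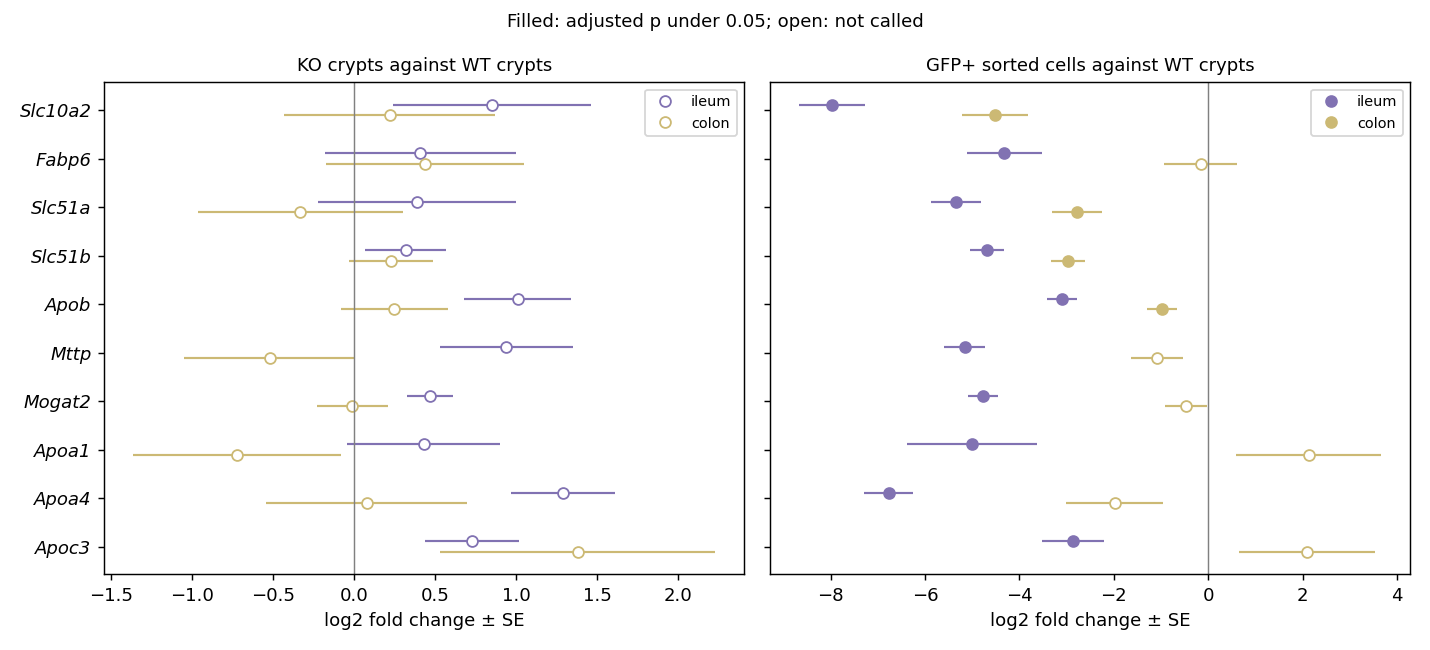
Log2 fold change of KO over WT crypts and of GFP cells over WT crypts for each gene, in ileum and in colon, with bars of 1 standard error from edgeR's quasi-likelihood fit, filled where the adjusted p was under 0.05 and open where it was not. The KO values run from -0.72 to 1.38 and all are open, the ileum GFP values are all filled and run from -7.97 to -2.87, and in colon the GFP values of Slc10a2, Slc51a, Slc51b and Apob are filled.

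Set against each other, ileum GFP and colon GFP cells differed in 4 of the 10 genes, all higher in ileum, where 22.7% of genes tested were called and 10.2% were called higher. The median log2 fold change was 2.04, against 0 over all genes. Mttp was 7.75-fold higher (log2 fold change 2.95 ± 0.48, adjusted p = 0.00101), Fabp6 6.09-fold (2.61 ± 0.72, adjusted p = 0.0272), Apob 3.95-fold (1.98 ± 0.30, adjusted p = 0.000333) and Mogat2 2.57-fold (1.36 ± 0.39, adjusted p = 0.0235). Slc10a2 was near the limit of detection in both tissues, with 14 counts over the ileum and 17 over the colon libraries, with a ratio of summed levels of 0.944 and a 95% counting interval of 0.431 to 2.04. Slc51a (1.31, adjusted p = 0.0902) and Slc51b (0.45, adjusted p = 0.432) were not called. Apoa1 (2.34, adjusted p = 0.201) was called without colon GFP 1 (7.5, adjusted p = 0.000104), as was Apoc3 (4.33, adjusted p = 0.0222), which made 6 genes called. Without ileum GFP 1, Apoa4 (adjusted p = 0.0325) and Apoc3 were called. The call for Fabp6 was lost without colon GFP 3, without ileum GFP 1 and without ileum GFP 3, and without colon GFP 1 its log2 fold change was 4, with an adjusted p of 0.000671. The call for Mogat2 was lost without colon GFP 2, without colon GFP 3 and without ileum GFP 2.

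The depletion of these genes in GFP cells was compared between tissues by an interaction contrast. It was more negative in ileum for all 10 genes, with a median difference of -4.11 on the log2 scale against -0.04 over all genes, and 3 of the 10 were called, where 2.19% of genes tested were called and 1.3% were called lower. This contrast equals the ileum over colon value in GFP cells minus that in WT crypts. Its sign is therefore not independent of the higher ileum WT levels given above. Colon WT held only 2 counts of Apoc3, 26 of Apoa4, 57 of Apoa1, 59 of Mogat2 and 92 of Mttp, which limits how far a depletion can be measured there. Mogat2 gave -4.31 ± 0.56 (adjusted p = 0.00163), Mttp -4.07 ± 0.72 (adjusted p = 0.0133) and Apob -2.11 ± 0.45 (adjusted p = 0.0279). For Apob the call was lost without colon WT 2 (-1.69, adjusted p = 0.152), without ileum WT 1, without ileum GFP 2 and without ileum GFP 3, and for Mttp without colon GFP 1 (adjusted p = 0.0524). Without colon WT 1 the value was -5.16 for Mttp and -2.71 for Apob. The remaining 7 genes ran from -7.13 for Apoa1 (adjusted p = 0.132) to -1.71 for Slc51b (adjusted p = 0.113) and were not called. Of these, Slc51a was called without colon WT 1 (-3.93, adjusted p = 0.0046), Fabp6 without colon GFP 2 (adjusted p = 0.0359) and Apoc3 without ileum GFP 2 (adjusted p = 0.0401). Without colon GFP 1 the difference was -1.98 for Apoa1, -2.76 for Fabp6, -3.09 for Apoa4 and -2.73 for Apoc3, none of them called.

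Other genes of the same pathways were read from 6 lists, beside 19.9% of all genes tested called and 9.71% called higher between ileum WT and colon WT. Of 15 tested genes for bile acid sensing and its transcription factors, 5 were higher and 1 lower in ileum WT than in colon WT. Fgf15, the hormone that ileal cells release when bile acids activate the receptor FXR, had 465 counts in ileum WT and 0 in colon WT, so it was at least 161-fold higher (floor of 3 counts over the group), and 571 counts in ileum KO gave at least 205-fold. Gata4 and Gata5, transcription factors of the small intestine, had log2 fold changes of 3.77 and 6.32, and Hnf4g 1.80. Hnf4a, a related nuclear receptor, was not called (0.36 ± 0.14, adjusted p = 0.12). Of 15 genes for other bile acid transport and metabolism, 5 were higher and 2 lower, among them the canalicular-type exporter Abcc2 at 6.06 ± 0.38 (adjusted p = 0.000202).

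Of 15 genes for chylomicron assembly and export, 11 were higher and 1 lower in ileum WT than in colon WT. Tm6sf2, a protein of the secretory pathway that promotes lipidation of lipoproteins, gave 3.43 ± 0.14 (adjusted p = 1.89e-05), and Creb3l3, a transcription factor of lipid genes, 3.54 ± 0.28 (adjusted p = 0.000367). Of 19 genes for fatty acid uptake and triacylglycerol synthesis, 8 were higher and 2 lower, with Dgat1, which makes triacylglycerol from the product of Mogat2, at 3.00 ± 0.21 (adjusted p = 0.000203). Of 19 sterol genes, 6 were higher and 2 lower, and the cholesterol uptake carrier Npc1l1 differed most, at 449 CPM against 1.07, or 445-fold (adjusted p = 0.00125). The sterol efflux pair Abcg5 and Abcg8 gave 3.78 and 4.94.

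Between ileum KO and WT none of these list genes was called except Acsl5, the acyl-CoA synthetase of enterocytes, which rose from 597 to 1114 CPM (log2 fold change 0.94 ± 0.12, adjusted p = 0.022). In ileum GFP cells against WT crypts 52.8% of all genes tested were called and 28.1% called lower. The counts lower and higher were 10 and 1 of 15 for sensing, 8 and 2 of 16 for other bile acid genes, 8 and 2 of 16 for chylomicron genes, 14 and 4 of 19 for fatty acid genes and 13 and 1 of 19 for sterol genes. In the other bile acid and chylomicron lists the share called in either direction was near that of all genes. The share called lower, 8 of 16 in each, was above the 28.1% of all genes. The median log2 fold changes of these 2 lists were -1.06 and -0.61, against -0.06 over all genes. Creb3l3 (-5.65 ± 0.33, adjusted p = 4.22e-08) and Sult2b1, a sulfotransferase of sterols (-4.57 ± 0.35, adjusted p = 4.99e-07), were among the lowest. Fgf15 gave -4.31 ± 0.74 (adjusted p = 0.00165). P4hb, protein disulfide isomerase and the partner subunit of the product of Mttp, stood at 1569 CPM in ileum GFP and 1567 in ileum WT (0.00 ± 0.30, adjusted p = 0.998). The equal means hide a spread between libraries, with 809, 2092 and 1807 CPM in ileum GFP 1, 2 and 3 against 1639 and 1496 in ileum WT. For the interaction each list held at most 1 gene called higher and 3 called lower, and Dgat1 (-1.81 ± 0.34, adjusted p = 0.0133) and Creb3l3 (-2.95 ± 0.60, adjusted p = 0.0225) were among those called lower.

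Likeness to other genes was described by the Pearson correlation of log2(CPM + 1) over the 14 libraries, among 8662 genes, with no test, since libraries of a group share tissue and cell type. The nearest gene outside the set was Slc27a4, a fatty acid transport protein, for Slc10a2 (0.984), Cyp4f14 for Slc51b (0.989), Ggt1 for Slc51a (0.984) and the aminopeptidase Enpep for Fabp6 (0.988) and Apob (0.993). It was the disaccharidase Sis for Apoa1 (0.991), Abhd3 for Mttp (0.995) and the peptidase Mme for Apoc3 (0.975). Within the set the highest coefficients were 0.99, among them Slc10a2 with Slc51b and Mttp with Apob, and the lowest was 0.62, between Slc51b and Apoa1.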

How the data were processed

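RNA of 14 mouse libraries was extracted with Trizol and RNeasy and sequenced after standard Illumina preparation, per the labels' protocols. The deposited files hold raw counts of reads per Ensembl gene, made by the authors with TopHat 1.4.1 on mm9 and HTSeq, per the submitters' processing notes. Neither the annotation release nor the strand setting is given in the sources used here. Reads outside genes (9.30% to 13.2% of uniquely placed reads in crypts, 24.9% to 52.3% in sorted cells) and the other HTSeq summary lines were left out.

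Symbols and exon lengths came from GENCODE M21 (GRCm38), which named 31004 of the 36536 IDs, and gene order and promoters from RefSeq. The 10 genes, the pathway lists and the marker lists were chosen with earlier results of these data known. Groups came from the labels.

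Tests were robust quasi-likelihood F-tests of edgeR 4.0.16 (R 4.3.3) after TMM scaling and filterByExpr, with Benjamini-Hochberg adjustment over all genes tested, called under 0.05. Comparisons of crypts were fitted on 8 libraries (14415 genes, biological coefficient of variation 0.2) and those with sorted cells on all 14 (15274 genes, 0.23). Standard errors are the absolute log2 fold change over the square root of F. Named list genes were, per list and comparison, up to 4 called genes by fold change and up to 2 uncalled genes by mean CPM, and text examples come from these. The scripts were tested on simulated counts. Same-numbered colon and ileum libraries of a genotype deviated together over genes (r = 0.36 in KO, 0.32 in WT), whereas KO and WT of a number did not (-0.06 to 0.05). A block of replicate within genotype and a block of replicate number were both tried, besides other scaling, no filter, DESeq2 1.42.0, fewer or more libraries in the fit and leaving out each library. No 2 libraries held the same values. Counting intervals cover counting error only. Some genes that the naming rule or the likeness measure picked are not reported here.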

Additional observations from a re-analysis of the deposited data

Results flagged for a closer look

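The depletion in GFP cells against WT crypts differed between ileum and colon, by the interaction term of edgeR's quasi-likelihood fit, for 3 of the 10 genes. The difference, ileum minus colon, was -2.11 ± 0.45 (SE) on the log2 scale for Apob (adjusted p = 0.0279), -4.07 ± 0.72 for Mttp (adjusted p = 0.0133) and -4.31 ± 0.56 for Mogat2 (adjusted p = 0.00163). In each case the ileum crypts were the group far above the others: mean levels in ileum WT, ileum GFP, colon WT and colon GFP were 1152, 135, 67.6 and 34.2 CPM for Apob, 478, 13.2, 3.75 and 1.67 for Mttp, and 117, 4.16, 2.31 and 1.61 for Mogat2. All 3 genes were lower in each ileum GFP library than in either ileum WT library. Colon WT held only 92 counts of Mttp and 59 of Mogat2, which limits how far a depletion can be measured in colon. Groups of 2 or 3 libraries were too small for a test of single outlying libraries.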

How the results depend on the processing

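Over 90 values (10 genes in 9 comparisons) and 1100 alternatives, 999 kept their direction and their side of the threshold, 30 lost the call, 36 gained it and 35 changed sign. The causes were not tested. Leaving out each library in turn gave these ranges of genes called among the 10: 8 to 10 for ileum over colon in WT and in KO, 2 to 6 in GFP cells, 0 to 1 for ileum KO over WT, 0 to 0 for colon KO over WT and for the difference of KO effects, 10 to 10 for ileum GFP below WT, 3 to 5 for colon GFP below WT and 2 to 4 for the difference of GFP effects. Where 1 library of a group was left, it was assumed to vary like the others. Without the filter on low counts 8 genes were called between ileum GFP and colon GFP, 7 between colon GFP and WT, 10 for the difference of GFP effects and 8 for ileum WT over colon WT, and that setting moved the median of all genes by -0.15, 0.332 and -0.233 in the first 3 of these. DESeq2 called 7, 2 and 9 for ileum GFP over colon GFP, ileum KO over WT and the difference of GFP effects, and it gave no adjusted p for Apoa1 in the 4 comparisons with GFP cells. The replicate block kept 10 genes in both crypt tissue comparisons and 4, 4 and 3 in colon GFP against ileum GFP, colon GFP against WT and the difference of GFP effects, and left 9 of 10 for ileum GFP below WT. The replicate block within genotype changed no call of the 10 genes in crypts. With only the groups compared in the fit, the calls were 8 for ileum WT over colon WT, 3 for ileum GFP over colon GFP, 3 for colon GFP below WT and 2 for the difference of GFP effects, and for the difference of KO effects that fit is the one reported.

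Changes of sign on leaving out a library occurred for values that were not called. For colon KO over WT the log2 fold change ran from -0.39 to 1.22 for Slc10a2, -0.14 to 1.41 for Fabp6, -1.02 to 1.00 for Slc51a, -0.08 to 0.60 for Slc51b, -1.48 to 0.74 for Apoa1, -0.46 to 0.77 for Apoa4, -0.16 to 0.84 for Apob, -1.18 to 0.56 for Mttp and -0.28 to 0.28 for Mogat2. Mogat2 also turned from -0.01 to 0.01 under RLE scaling, under scaling without genes above 1% of counts and under DESeq2, and to 0 without the filter. For the difference of KO effects the range was -0.38 to 1.41 for Slc10a2, -1.0 to 0.59 for Fabp6, -0.62 to 1.41 for Slc51a, -0.28 to 0.40 for Slc51b, -0.31 to 1.92 for Apoa1 and -3.80 to 0.13 for Apoc3. For colon GFP over WT it was -1.55 to 0.80 for Fabp6, -3.02 to 3.59 for Apoa1 and -0.14 to 4.96 for Apoc3, for ileum GFP over colon GFP -0.59 to 0.52 for Slc10a2, and for ileum KO over WT -0.01 to 1.04 for Fabp6. Counts over all genes moved more: from 176 to between 4 and 1403 for ileum KO over WT, from 22 to between 0 and 159 for colon KO over WT, from 1 to between 0 and 335 for the difference of KO effects, from 335 to between 137 and 1093 for the difference of GFP effects, and to as few as 1213 from 2872 for WT tissue, 1603 from 3699 for KO tissue, 2147 from 3474 for GFP tissue and 4184 from 7007 for colon GFP against WT. Depth limits Apoc3 in colon most, with 2 counts over WT and 6 over KO.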

Other observations

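Of 13 tested targets of the PPAR receptors and oxidation enzymes, none was higher and 5 were lower in ileum WT than in colon WT by edgeR's quasi-likelihood test, where 19.9% of all genes tested were called. The other 8 were not called, and the median log2 fold change was -0.31. Pparg, a nuclear receptor of lipid metabolism, gave a log2 fold change of -3.31 ± 0.22 (adjusted p = 0.000161). It was also lower in ileum GFP than in colon GFP, at -3.60 ± 0.22 (adjusted p = 1.62e-07), so this regional difference was measured in sorted cells as well as in crypts.

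In sorted cells several sterol genes differed between tissues although Slc10a2, Slc51a and Slc51b were not called. Of 19 sterol genes tested, 4 were higher in ileum GFP than in colon GFP, 4 were lower and 11 were not called. Over all genes tested 22.7% were called. The median log2 fold change of the list was -0.26, with 14 of 19 negative, so the list as a whole was not higher in ileum. Npc1l1 was higher in ileum GFP than in colon GFP (4.48 ± 1.03, adjusted p = 0.0147), as were Abcg5 (3.91 ± 0.58, adjusted p = 0.000798) and Abcg8 (3.72 ± 0.58, adjusted p = 0.00116), whereas Scarb1, the receptor for high-density lipoprotein, was lower (-5.45 ± 0.39, adjusted p = 5.99e-07). In colon GFP 1 Npc1l1 stood at 15.2 CPM, against 1.25 and 0.448 in the other libraries of that group. Abcg5 stood at 3.51 CPM there against 0.872 and 0.448, and Abcg8 at 4.25 against 0.996 and 1.79. For these sterol genes no fit without colon GFP 1 is given. Slc10a1, which encodes the hepatic relative of Slc10a2, stood at 2.72 CPM in ileum GFP cells and 0.121 in ileum WT crypts. It passed the filter on low counts only with the sorted libraries in the fit, so no test of it is given.

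Fabp2, the general fatty acid binding protein of enterocytes, did not share the depletion of Fabp6 in ileum GFP cells, with 1267 CPM in ileum GFP and 762 in ileum WT. It was chosen after its values were seen.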
